A study of Rattus norvegicus with 15 samples.

Results

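The cytochrome P450s of families 1 to 4 were followed in intestine from 3 groups of male rats. They were taken as every gene whose name on the array was Cyp, a digit from 1 to 4, a letter and a number. That rule gave 53 genes of 17338 named genes: 3 in family 1, 32 in family 2, 5 in family 3 and 13 in family 4. Of these, 36 were detected above background in all 5 rats of some group and were tested among 13023 genes, and 24 of the 36 were called different between at least 1 pair of groups, as were 29.3% of all genes tested. Of the 36, 30 were above background on all 15 arrays, and the exceptions were Cyp2a2, Cyp2c6v1, Cyp2f4, Cyp2w1, Cyp4a3 and Cyp4a8.

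Cytochrome P450s are heme enzymes, most of them held in the endoplasmic reticulum, that put an oxygen atom into their substrate with electrons passed on by P450 reductase. Enzymes of families 1 to 3 oxidise drugs, dietary chemicals, steroids and, in some cases, arachidonic acid, and those of family 4 mainly hydroxylate fatty acids and eicosanoids at the end of the chain. In the small intestine they are found chiefly in the absorptive enterocytes, where they meet swallowed chemicals before the liver does. Their genes are under the control of ligand-sensing transcription factors: the aryl hydrocarbon receptor for Cyp1a, the constitutive androstane receptor CAR (Nr1i3) for Cyp2b, the pregnane X receptor PXR (Nr1i2) for Cyp3a and the peroxisome proliferator-activated receptor PPAR-alpha (Ppara) for Cyp4a.

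The GK (Goto-Kakizaki) rat is a nonobese strain, derived from Wistar stock, that develops type 2 diabetes spontaneously. In the GK-S-30 group, GK rats aged 16 wk received Roux-en-Y gastric bypass (RYGB), in which the small intestine is divided and its lower end, the Roux limb (RL), is joined to the upper stomach. The RL was 30 cm long and the biliopancreatic limb, which carries bile and pancreatic juice, was 16 cm. GK-Sham-PF rats, called sham rats below, were also GK rats aged 16 wk and were pair-fed. Their intestine was opened and rejoined 16 cm from the ligament of Treitz with no rearrangement. Their food was set to that of the RYGB group that ate least, usually a group with a shorter RL than GK-S-30. Wistar rats were nondiabetic, age-matched and not operated, so that strain, sham operation and pair-feeding cannot be told apart between GK-Sham-PF and Wistar. Tissue was taken after an overnight fast, 14 wk postoperation. It was a segment of 5 cm, starting 5 cm below the gastric anastomosis in GK-S-30 rats and 21 to 26 cm from the ligament of Treitz in both control groups. Each group had 5 rats and each rat 1 single-colour Agilent array with probes of 60 bases.

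Values are log2 processed signals after quantile normalization, each gene read by its brightest tested probe. A difference of 1 is a 2-fold change, and levels of different probes cannot be compared with each other. Differences are given as log2 values ± SE with p-values from limma, adjusted by Benjamini-Hochberg over all 13023 genes, and were called at 0.05. Between 67.4% and 75.4% of spots per array were well above background, and the 75th percentile of raw signal ranged from 224.5 to 384.3. The arrays lay on 4 slides, of which 1 held 2 GK-S-30 arrays beside 2 GK-Sham-PF arrays and another held 3 of GK-Sham-PF and 1 of Wistar. No slide held both Wistar and GK-S-30. With slide as a fixed block, 14 of the 40 calls made below held. That block compares GK-S-30 with sham only through GK-S-30 replicates 1 and 2 and the 2 sham arrays beside them. It compares sham with Wistar only through 3 sham arrays and 1 Wistar array, and GK-S-30 with Wistar through both slides in turn. All slide-block differences from Wistar therefore hang on 1 Wistar array, and slides with 1 group add only to the estimate of the spread. The segments were whole tissue, so that fewer cells of a type and less RNA per cell cannot be told apart. All 12 absorptive enterocyte markers tested were above background on every array.

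The Cyp2b genes had the largest called differences between GK-S-30 and sham rats, and some of their probes are shown because these genes are close copies of one another. Each probe sequence, as filed by the study, is written 5′ to 3′, and coordinates are those of rn4. Capitals mark bases that are identical to those of another listed probe where the 2 probes lie over the same stretch of the gene.
Cyp2b21, chr1:81581501-81581560, plus strand: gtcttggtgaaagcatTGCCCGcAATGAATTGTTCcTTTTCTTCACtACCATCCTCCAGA
Cyp2b12, chr1:81790847-81790906, plus strand: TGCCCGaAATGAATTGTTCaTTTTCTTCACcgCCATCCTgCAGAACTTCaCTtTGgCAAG
Cyp2b2 probe B, chr1:81358908-81358967, plus strand: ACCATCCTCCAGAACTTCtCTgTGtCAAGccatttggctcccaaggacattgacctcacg
Cyp2b1, within chr1:81282851-81285942: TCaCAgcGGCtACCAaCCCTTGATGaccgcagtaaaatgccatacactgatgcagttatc
Cyp2b2 probe A, chr1:81354719-81354778, plus strand: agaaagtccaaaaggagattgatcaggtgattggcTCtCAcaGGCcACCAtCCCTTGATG
Cyp2b15, within chr1:81844177-81872090: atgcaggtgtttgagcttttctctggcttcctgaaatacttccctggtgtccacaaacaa

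The Cyp2b21 and Cyp2b12 probes shared 39 of 44 aligned bases (88.6%), Cyp2b12 and Cyp2b2 probe B 24 of 29 (82.8%), and Cyp2b1 and Cyp2b2 probe A 20 of 25 (80%). Over 13 aligned bases, Cyp2b21 and Cyp2b2 probe B were identical. The Cyp2b2 values reported below come from a brighter probe (chr1:81359275-81359334), which is not shown and was not aligned. The Cyp2b1 and Cyp2b15 probes were each placed over a span longer than 60 bases, 3092 and 27914 bases, so that each lies on the genome in separate pieces. The array files also tie the reported Cyp2b2 probe to a Cyp2b1 transcript and the Cyp2b12 probe to a Cyp2b15 transcript. Signal from 1 of these genes may therefore reach the probe of another, and which gene of the group changed is uncertain.

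Compared with pair-fed sham rats, the RL of GK-S-30 rats held less RNA of 12 of the 36 P450s and more of 2. Of the 36, 38.9% were called, beside 9.65% of all genes tested (4.49% lower and 5.16% higher). The 12 that fell were 5 of the 6 Cyp2b genes, Cyp2c6v1, Cyp2c79, Cyp2j3, Cyp2j4, Cyp3a62, Cyp4a1 and Cyp4f5, and the 2 that rose were Cyp2s1 and Cyp2t1. The 5 Cyp2b probes may share signal, so the 12 and the 38.9% may count 1 change several times. Falls ranged from 1.62-fold for Cyp2j3 to 5.13-fold for Cyp2b2. The median difference over the 36 was -0.43, beside -0.03 over all genes. It was -0.27 without GK-S-30 replicate 1, -0.20 with normexp background correction (an alternative that shrinks the differences of dim probes), -0.24 over all 53 with no filter and -0.70 with slide as a fixed block. Over the 30 above background on every array, 11 were lower and 2 higher, beside 522 and 621 of the 12056 genes so filtered.

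Cyp2b1 and Cyp2b2 are the classical phenobarbital-induced P450s and are induced through CAR. Cyp2b2 gave 16.59, 13.84, 15.14, 15.88 and 16.55 in the Wistar rats, in order of replicate number. In GK-Sham-PF rats it gave 15.02, 15.74, 14.997, 15.39 and 14.96, and in GK-S-30 rats 10.97, 12.21, 14.44, 13.69 and 13.004. All 5 GK-S-30 values were below all 5 sham values, whereas the highest GK-S-30 value was above the lowest Wistar value. The fall from sham was 2.36 on the log2 scale, or 5.13-fold (difference -2.36 ± 0.59, 95% interval -3.61 to -1.10, adjusted p = 0.0208). Against Wistar it was 6.67-fold (-2.74, adjusted p = 0.0032), and GK-Sham-PF and Wistar differed by -0.38 (adjusted p = 0.791). Against sham, the 4 Cyp2b2 probes tested gave differences between -2.62 and -2.16.

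Cyp2b1 gave 13.99, 11.17, 11.75, 13.34 and 14.00 in Wistar rats, 12.40, 13.33, 12.39, 12.73 and 11.53 in sham rats, and 8.33, 9.30, 11.87, 11.09 and 10.20 in GK-S-30 rats. GK-S-30 replicate 3 lay above the lowest sham rat. The difference from sham was -2.32 ± 0.66 (4.98-fold, adjusted p = 0.0398), and from Wistar -2.69 (adjusted p = 0.00784). Cyp2b15 gave 10.88, 8.34, 10.25, 10.25 and 10.98 in Wistar rats, 9.55, 10.25, 9.59, 9.84 and 10.03 in sham rats, and 6.41, 7.14, 9.17, 8.44 and 7.57 in GK-S-30 rats. Every GK-S-30 rat was below every sham rat (-2.11 ± 0.51, adjusted p = 0.0176), and Wistar replicate 2 was low among its group. A second Cyp2b15 probe (chr1:81842066-81842125) was above background on none of the 15 arrays, so that the fall rests on 1 of 2 probes.

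Cyp2b21 and Cyp2b12 took the same course. Cyp2b21 gave 13.46, 10.56, 11.38, 12.85 and 13.54 in Wistar, 11.82, 12.68, 11.89, 12.20 and 11.32 in sham and 7.64, 9.02, 11.32, 10.59 and 9.76 in GK-S-30 rats. Its highest GK-S-30 value fell just short of its lowest sham value (-2.32 ± 0.66, 4.99-fold, adjusted p = 0.0377). Cyp2b12 gave 13.03, 10.10, 10.88, 12.30 and 13.10 in Wistar, 11.29, 12.23, 11.42, 11.68 and 10.85 in sham and 7.70, 8.71, 10.84, 9.99 and 9.46 in GK-S-30 rats. Here too the groups met without overlap (-2.15 ± 0.61, 4.45-fold, adjusted p = 0.038). Against Wistar, Cyp2b15 fell 5.25-fold (adjusted p = 0.00291), Cyp2b21 6.46-fold (adjusted p = 0.00729) and Cyp2b12 5.82-fold (adjusted p = 0.00665), all with overlap. The sixth gene, Cyp2b3, averaged 5.98 ± 0.32 in Wistar, 5.61 ± 0.50 in sham and 5.05 ± 0.27 in GK-S-30 rats (SD, n = 5). It was lower than in Wistar (-0.93, adjusted p = 0.00595), while the difference from sham was -0.57 (adjusted p = 0.128).

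**Figure D1:**
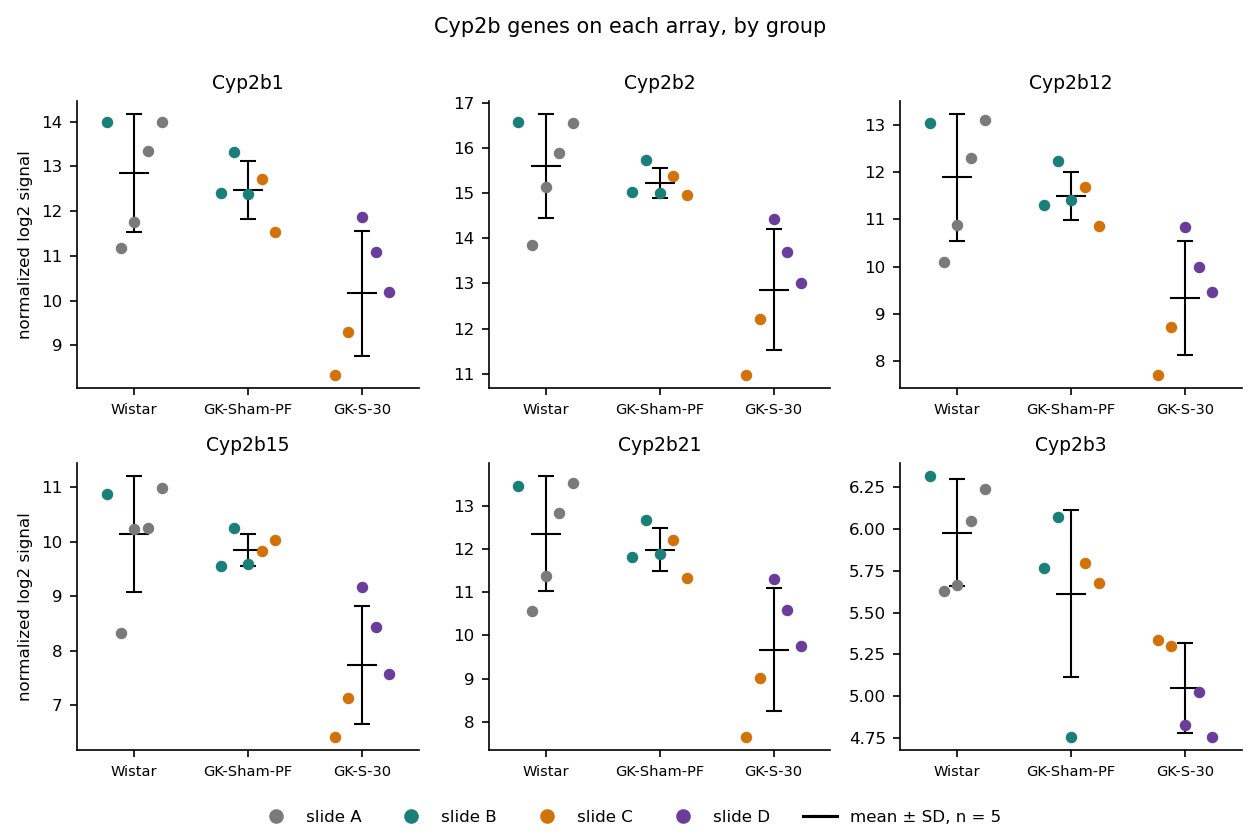
Log2 signal of the 6 Cyp2b genes on each of the 15 arrays (points, coloured by slide), with the mean and SD of each group of 5 rats (black), on a scale of its own for each gene. For Cyp2b2, the GK-S-30 rats spread from 10.97 to 14.44 while the sham rats stayed between 14.96 and 15.74.

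Rats of a group differed widely in the Cyp2b genes, and the 5 genes that fell kept close to one another on each array. Averaged over those 5 genes, an array's deviation from the mean of all 15 arrays was 2.01, -0.77, 0.31, 1.35 and 2.06 in Wistar rats and 0.44, 1.27, 0.48, 0.79 and 0.17 in sham rats. In GK-S-30 rats it was -3.37, -2.30, -0.05, -0.81 and -1.58. The spread between the 5 genes on any 1 array did not exceed 1.08, and the 5 probes cannot be taken as separate measurements. GK-S-30 replicate 1 was the lowest of the 15 arrays for 21 of the 36 P450s, and the next most frequent array was lowest for 4.

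**Figure D2:**
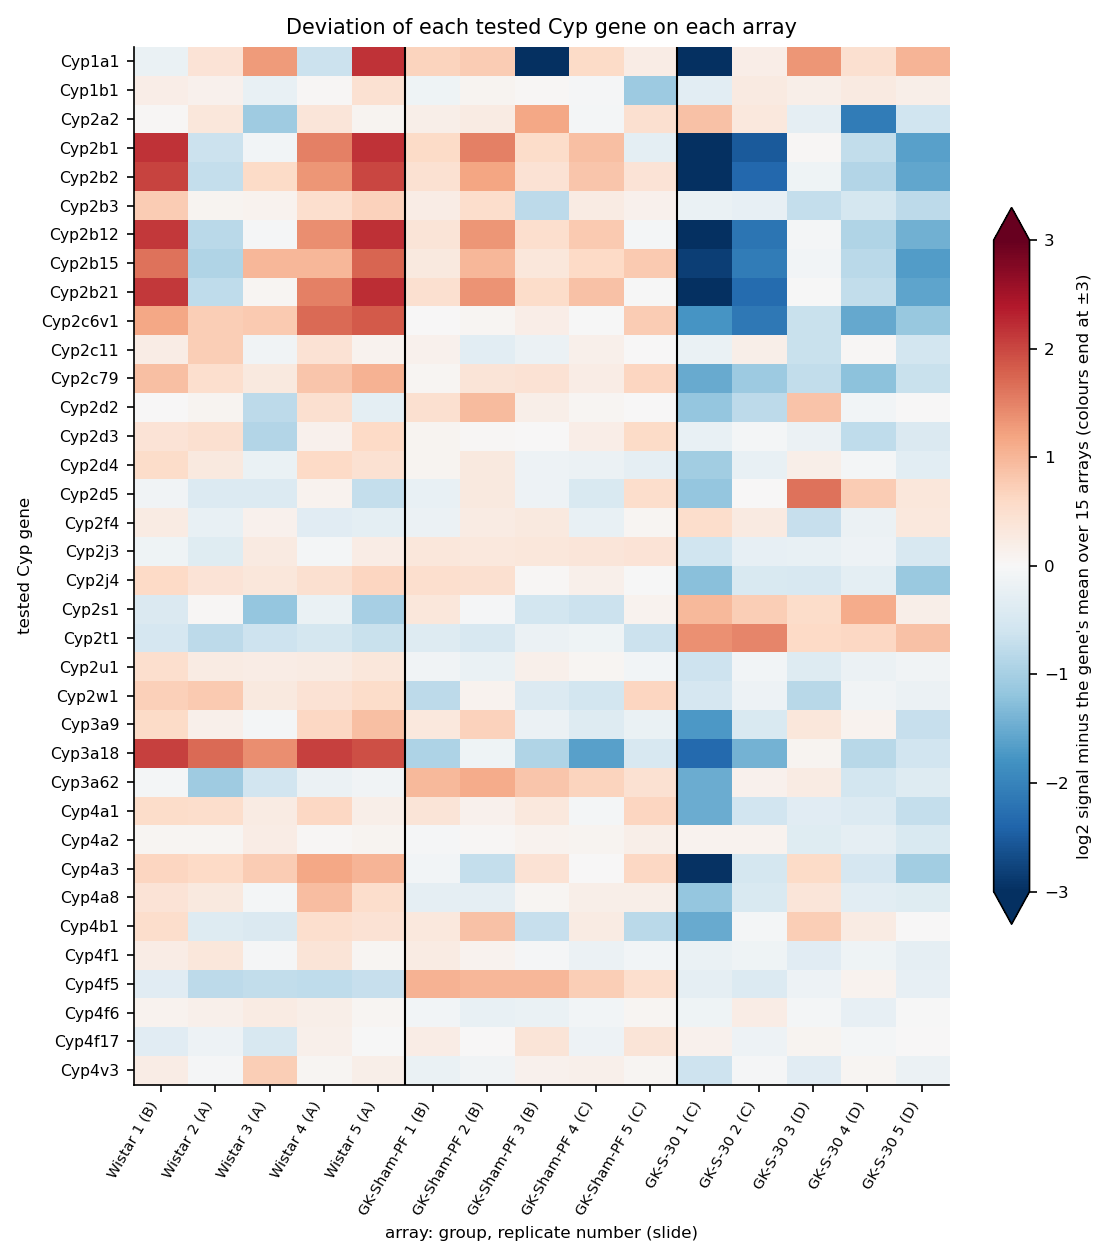
Heat map of each tested P450 (36, down the side) on each array (15, along the bottom, with the slide letter in brackets), coloured by its log2 signal minus the gene's mean over all arrays, blue below and red above, with colours ending at 3 in either direction. The 5 Cyp2b genes that fell share 1 pattern of colours across arrays, and the GK-S-30 replicate 1 column is the bluest, holding the lowest value of 21 genes.

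With GK-S-30 replicates 1 and 2 both left out, a choice made after seeing the data, the differences from sham of these 5 genes were -1.39 to -1.51 and none was called (adjusted p = 0.114 to 0.239). The calls of Cyp2b1, Cyp2b12 and Cyp2b21 against sham were also lost when any 1 of GK-Sham-PF replicates 1, 2, 3 and 4 or GK-S-30 replicates 1, 2 and 5 was left out, with adjusted p up to 0.0942, 0.0892 and 0.0868. With no filter on dim probes, which raises the number of genes tested, they had adjusted p-values of 0.0639, 0.0614 and 0.0611. The Cyp2b2 call was lost without GK-Sham-PF replicate 2 (adjusted p = 0.0522), and that of Cyp2b15 held without any 1 array. On the slide that held 2 arrays each of sham and GK-S-30, which were GK-S-30 replicates 1 and 2, the 5 differences ran from -3.59 to -3.06. The fixed slide block takes its differences from these same arrays, so that it is no separate check. In it Cyp2b2 and Cyp2b15 stayed called against sham, while Cyp2b1, Cyp2b12 and Cyp2b21 had adjusted p-values of 0.0646, 0.0755 and 0.0581. None of the 5 was called against sham by the methods' Tukey comparison after Benjamini-Hochberg adjustment (adjusted p = 0.104 to 0.190).

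The 250 bases before the transcript start of Cyp2b1 and Cyp2b12 are shown because the genes moved together (RefSeq, build GRCr8, plus strand). Capitals mark matches to TTGCNTAA and AGGTCA, searched on both strands and chosen after the Cyp2b sequences had been read.
Cyp2b1, chr1:90645869-90646118: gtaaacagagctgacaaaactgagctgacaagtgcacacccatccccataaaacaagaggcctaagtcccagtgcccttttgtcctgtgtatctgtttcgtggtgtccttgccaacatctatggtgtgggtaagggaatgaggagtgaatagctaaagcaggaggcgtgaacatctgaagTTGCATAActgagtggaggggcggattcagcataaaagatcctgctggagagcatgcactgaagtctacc
Cyp2b12, chr1:91135044-91135293: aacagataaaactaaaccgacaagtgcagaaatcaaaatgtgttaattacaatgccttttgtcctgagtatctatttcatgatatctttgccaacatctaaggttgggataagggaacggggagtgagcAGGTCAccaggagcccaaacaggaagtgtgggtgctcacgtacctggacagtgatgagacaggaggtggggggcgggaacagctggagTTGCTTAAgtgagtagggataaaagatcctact

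All 6 Cyp2b genes held TTGCNTAA in this window, Cyp2b3 among them, and none of the other tested P450s did (6 of 29 with a listed promoter). It is found in 2.11% of 33469 promoters of that length. AGGTCA stood in Cyp2b12, Cyp2b15 and Cyp2b21, in 8 of the 29 P450s and in 14.1% of promoters. Because both motifs were chosen after the Cyp2b sequences had been read, their counts in these genes are no test. Both are matches of letters and no binding was measured.

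Among the Cyp2c genes, whose products metabolise drugs and arachidonic acid, 2 of the 3 tested fell against sham, Cyp2c79 with little spread within groups. Cyp2c79 (chr1:244419539-244419598, minus strand) gave 10.72, 10.34, 10.11, 10.65 and 10.87 in Wistar, 9.88, 10.21, 10.26, 10.04 and 10.47 in sham and 8.32, 8.73, 9.09, 8.60 and 9.17 in GK-S-30 rats. No GK-S-30 rat reached any rat of the control groups, with falls of 2.62-fold from sham (-1.39 ± 0.18, adjusted p = 0.000263) and 3.39-fold from Wistar (adjusted p = 5.11e-06). Cyp2c6v1 (chr1:243895752-243895811) stepped down across the 3 groups. It gave 7.26, 6.83, 6.88, 7.80 and 7.94 in Wistar, 6.10, 6.17, 6.29, 6.09 and 6.85 in sham and 4.32, 3.96, 5.43, 4.57 and 4.95 in GK-S-30 rats.

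Cyp2c6v1 fell 3.15-fold from sham (-1.65 ± 0.28, adjusted p = 0.0019) and 6.5-fold from Wistar (-2.70, adjusted p = 5.64e-06). It was also 2.07-fold lower in sham than in Wistar rats (-1.05, adjusted p = 0.0268), a call lost without any 1 of Wistar replicates 4 and 5 or GK-Sham-PF replicates 1 to 4 (adjusted p up to 0.0761) and with slide as a block (-1.07, adjusted p = 0.477). Under the slide block both genes stayed called against sham, with differences of -1.74 for Cyp2c79 and -2.33 for Cyp2c6v1. With normexp background correction the Cyp2c6v1 differences shrank to -0.58 from sham, -1.19 from Wistar and -0.61 between sham and Wistar, all still called. Cyp2c11, a male-specific P450 of rat liver, was lower in GK-S-30 than in Wistar rats (-0.53, adjusted p = 0.0436), a call lost without any 1 of Wistar replicates 1, 2, 4 and 5, GK-Sham-PF replicates 1 and 3 and GK-S-30 replicates 1, 3 and 5 (adjusted p up to 0.109). With normexp that difference was -0.15.

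The Cyp2j genes encode epoxygenases of arachidonic acid. Cyp2j4 (chr5:116702769-116702828, minus strand) gave 16.20, 16.00, 15.93, 16.09 and 16.23 in Wistar, 16.09, 16.07, 15.64, 15.74 and 15.59 in sham and 14.34, 15.13, 15.11, 15.30 and 14.48 in GK-S-30 rats. All 5 GK-S-30 rats lay below the other 10 (-0.96 ± 0.18 from sham, adjusted p = 0.0037, and -1.22 from Wistar, adjusted p = 0.000141). Cyp2j3 averaged 11.31 ± 0.26 in Wistar, 11.67 ± 0.03 in sham and 10.97 ± 0.19 in GK-S-30 rats (SD, n = 5). It was lower than in sham (-0.70 ± 0.12, adjusted p = 0.00253), and its difference from Wistar was -0.33 (adjusted p = 0.0561). With slide as a block the differences from sham were -0.93 and -0.81, at adjusted p-values of 0.12 and 0.0673.

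Both P450s that rose belong to the Cyp2 gene cluster that also holds Cyp2b. Cyp2t1 (chr1:82232764-82232823) was read by the probe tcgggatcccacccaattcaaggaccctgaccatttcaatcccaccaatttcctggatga. It gave 8.63, 8.35, 8.51, 8.62 and 8.47 in Wistar, 8.76, 8.66, 8.96, 9.02 and 8.50 in sham and 10.50, 10.61, 9.73, 9.77 and 10.01 in GK-S-30 rats. Every GK-S-30 rat was above all 10 control rats, by 2.54-fold over sham (1.35 ± 0.17, adjusted p = 0.000207) and 3.05-fold over Wistar (adjusted p = 6.36e-06). It rose by 1.80 over sham with slide as a block (adjusted p = 0.000819).

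Cyp2s1, a P450 found mainly in epithelia outside the liver, was read by the probe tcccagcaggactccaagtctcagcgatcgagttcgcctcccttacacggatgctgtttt (chr1:81012139-81012198, minus strand). It gave 7.12, 7.59, 6.39, 7.36 and 6.55 in Wistar, 7.90, 7.52, 6.99, 6.90 and 7.65 in sham and 8.52, 8.30, 8.11, 8.66 and 7.74 in GK-S-30 rats. The lowest GK-S-30 rat lay within the sham range but above every Wistar rat. It rose 1.83-fold over sham (0.87 ± 0.26, adjusted p = 0.0439) and 2.4-fold over Wistar (1.26, adjusted p = 0.0021). The call against sham was lost when any 1 of Wistar replicate 1, GK-Sham-PF replicates 2 to 5 and GK-S-30 replicates 1 to 4 was left out (adjusted p up to 0.105), with slide as a block (1.13, adjusted p = 0.216) and with no filter on dim probes (adjusted p = 0.0684). With normexp the difference from Wistar was 0.83.

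On rn4 chromosome 1 the reported probes of this cluster run in the order Cyp2s1, Cyp2b3, Cyp2b1, Cyp2b2, Cyp2b21, Cyp2b12, Cyp2b15, Cyp2a2, Cyp2f4 and Cyp2t1. The 2 genes at its ends rose over sham, the Cyp2b genes from Cyp2b1 to Cyp2b15 fell, and Cyp2b3, Cyp2a2 and Cyp2f4 were not called against sham.

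**Figure D3:**
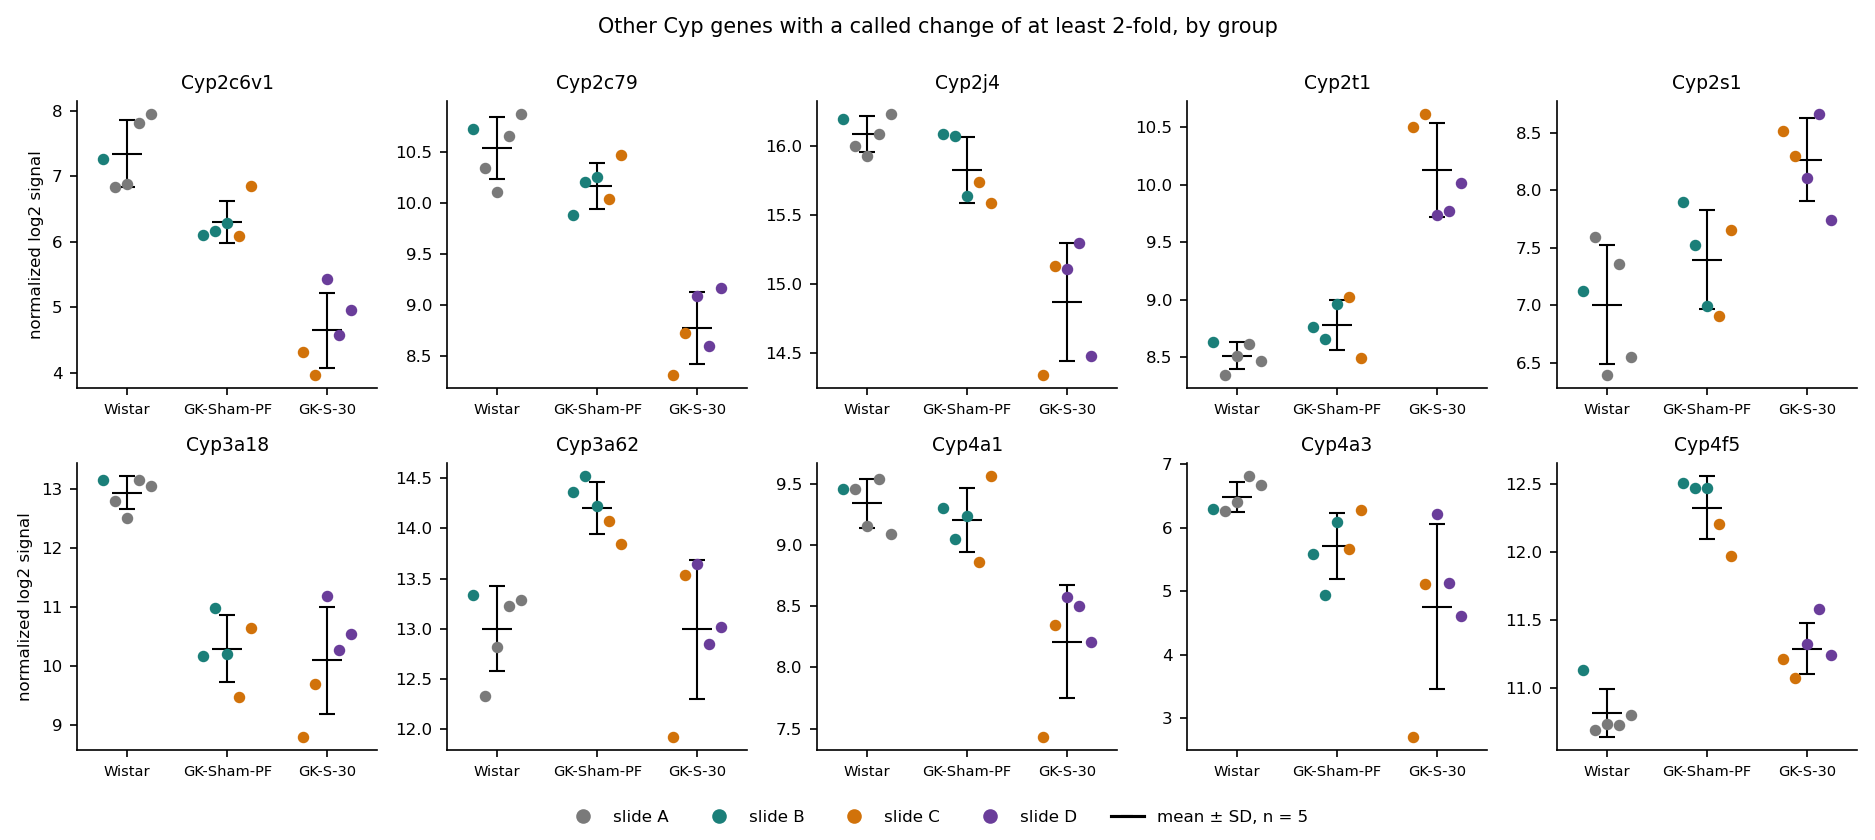
Log2 signal on each array (points, coloured by slide) of the other P450s with a called change of at least 1 on the log2 scale, with the mean and SD of each group of 5 rats (black), on a scale of its own for each gene. Cyp2t1 is above all controls in GK-S-30 rats, Cyp3a18 is low in both GK groups, and Cyp3a62 and Cyp4f5 are high in GK-Sham-PF rats.

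The Cyp3a enzymes are the main drug-oxidising P450s of the intestine, and their members took different courses. Between GK-Sham-PF and Wistar 2 of the 36 P450s were higher and 2 lower, 11.1% beside 8.83% of all genes (4.2% higher and 4.63% lower). Cyp3a18 (chr12:9087179-9087238, minus strand) gave 13.16, 12.80, 12.51, 13.16 and 13.05 in Wistar, 10.18, 10.98, 10.21, 9.47 and 10.64 in sham and 8.79, 9.70, 11.19, 10.27 and 10.54 in GK-S-30 rats. Both GK groups lay wholly below Wistar, 6.24-fold in sham (-2.64 ± 0.36, adjusted p = 0.000184) and 7.17-fold in GK-S-30 (-2.84, adjusted p = 4.94e-05). Between them the difference was -0.20, with a 95% interval of -0.98 to 0.58 (adjusted p = 0.799). With slide as a block, which sets 3 sham arrays against 1 Wistar array, the difference of sham from Wistar rats was -2.70.

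Cyp3a62, a Cyp3a form of the rat gut, went the other way in sham rats. It gave 13.33, 12.34, 12.82, 13.23 and 13.29 in Wistar, 14.36, 14.52, 14.22, 14.07 and 13.85 in sham and 11.92, 13.54, 13.64, 12.85 and 13.02 in GK-S-30 rats. All sham rats exceeded all rats of the other groups, by 2.3-fold over Wistar (1.20 ± 0.28, adjusted p = 0.0133) and 2.31-fold over GK-S-30 (-1.21 for GK-S-30 against sham, adjusted p = 0.0151). Between GK-S-30 and Wistar the difference was -0.01, with a 95% interval of -0.61 to 0.60. Neither call held with slide as a block, where the differences were 1.03 (adjusted p = 0.607) and -1.23 (adjusted p = 0.188), or by the methods' Tukey comparison after Benjamini-Hochberg adjustment (adjusted p = 0.0832 and 0.0874). Cyp3a9 averaged 15.99 ± 0.38 in Wistar, 15.60 ± 0.45 in sham and 15.07 ± 0.81 in GK-S-30 rats (SD, n = 5) and was not called (GK-S-30 against Wistar -0.92, adjusted p = 0.0517).

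The Cyp4a and Cyp4f enzymes hydroxylate fatty acids and, for Cyp4f, leukotrienes. Cyp4a1 (chr5:135915621-135915680), the lauric acid hydroxylase that PPAR-alpha ligands induce in liver, gave 9.46, 9.45, 9.15, 9.54 and 9.09 in Wistar, 9.31, 9.05, 9.23, 8.86 and 9.56 in sham and 7.43, 8.35, 8.58, 8.50 and 8.21 in GK-S-30 rats. No GK-S-30 rat reached a control rat (-0.99 ± 0.19 from sham, 1.99-fold, adjusted p = 0.00547, and -1.13 from Wistar, adjusted p = 0.000614). It stayed called against sham with slide as a block (-1.32, adjusted p = 0.0413).

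Cyp4a3 (chr5:135876161-135876220, minus strand) gave 6.30, 6.26, 6.41, 6.81 and 6.67 in Wistar, 5.58, 4.94, 6.09, 5.66 and 6.27 in sham and 2.69, 5.12, 6.23, 5.14 and 4.61 in GK-S-30 rats. GK-S-30 replicate 1 stood far below the rest of its group. The difference was -1.73 ± 0.47 from Wistar (adjusted p = 0.0129) and -0.95 from sham (adjusted p = 0.232). With normexp the difference from Wistar was -0.57, and with slide as a block it was -2.82 (adjusted p = 0.215). Cyp4a8, above background on 3 of 5 GK-S-30 arrays, differed from Wistar by -0.80 (adjusted p = 0.0185), but by -0.12 with normexp (adjusted p = 0.118) and by -1.56 with slide as a block (adjusted p = 0.154). Cyp4a2 was not called in any pair.

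Cyp4f5 (chr7:13133749-13133808) had the shape of Cyp3a62 with less spread. It gave 11.13, 10.69, 10.73, 10.72 and 10.80 in Wistar, 12.51, 12.47, 12.47, 12.21 and 11.97 in sham and 11.21, 11.07, 11.32, 11.58 and 11.24 in GK-S-30 rats. The sham rats lay above all others, by 2.86-fold over Wistar (1.52 ± 0.13, adjusted p = 1.02e-06) and 2.06-fold over GK-S-30 (-1.04 for GK-S-30 against sham, adjusted p = 0.000199). GK-S-30 rats were 1.39-fold above Wistar (0.47, adjusted p = 0.0133), with overlap. The first 2 calls held with slide as a block, at 1.36 and -0.95, and the last did not (0.41, adjusted p = 0.404).

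Against Wistar rats, which differ from GK-S-30 rats in strain as well as in operation, 19 of the 36 P450s were lower and 3 higher, 61.1% beside 26.2% of all genes (13.8% lower and 12.4% higher). The 19 include Cyp2w1, Cyp4a3, Cyp4a8 and Cyp2c6v1, which were tested although not above background on every GK-S-30 array. They also include all 6 Cyp2b genes, whose probes may share signal. Over the 30 above background on all arrays 16 were lower and 3 higher, beside 1634 and 1496 of the 12056 genes so filtered. Besides those described with their values, Cyp2d4 (-0.63), Cyp2u1 (-0.58, a fatty acid hydroxylase), Cyp4f1 (-0.41) and Cyp4v3 (-0.45) were lower. The Cyp2d4 call was lost without any 1 of Wistar replicates 1, 2, 4 and 5 and GK-S-30 replicates 1 and 5 (adjusted p up to 0.0791), and that of Cyp4v3 without any 1 of Wistar replicates 1, 3 and 5 and GK-S-30 replicates 1, 3 and 5 (adjusted p up to 0.297). The Cyp4v3 difference was also smaller and not called by its second probe (-0.17, adjusted p = 0.531) and with normexp (-0.11, adjusted p = 0.428). Cyp2u1 was still called with normexp, at -0.13. Cyp2w1 was well above background on all 5 Wistar arrays, 1 sham array and no GK-S-30 array. It was tested only through the group where it is high, which favours a difference, so its call cannot count as support. Its measured means were 3.16 in GK-S-30 and 4.07 in Wistar rats (at least 1.47-fold lower, adjusted p = 0.00931), and with normexp the difference was -0.09 (adjusted p = 0.206). With slide as a block the calls against Wistar that held were those of Cyp2b2, Cyp2c6v1, Cyp2c79, Cyp2t1 and Cyp3a18.

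Over the 36 P450s, 9 fell in GK-S-30 rats relative to both control groups, 2 were higher than in both, 10 were lower than in Wistar with no call against sham, Cyp4f5 was lower than in sham and higher than in Wistar, and Cyp2j3 and Cyp3a62 were lower than in sham with no call against Wistar. Of the 9, 5 were the Cyp2b genes that kept close to one another, and these courses were not counted over all genes. The mean was lower in GK-S-30 than in sham rats for 29 of the 36, beside 7169 of all 13023 genes. Against Wistar it was lower for 30 of the 36, beside 6799 of all genes. In 12 P450s all 5 GK-S-30 rats lay below all 5 sham rats, against 4.35% of all genes, and in 1, Cyp2t1, all lay above, against 4.65%. All 5 GK-S-30 rats lay below all 5 Wistar rats in 10 P450s (10.3% of all genes) and above them in 2 (9.21%), and all 5 sham rats lay below all 5 Wistar rats in 2 (5.1%) and above them in 3 (4.59%). The comparisons share rats and the Cyp2b probes may share signal, so these counts do not stand apart from one another.

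**Figure D4:**
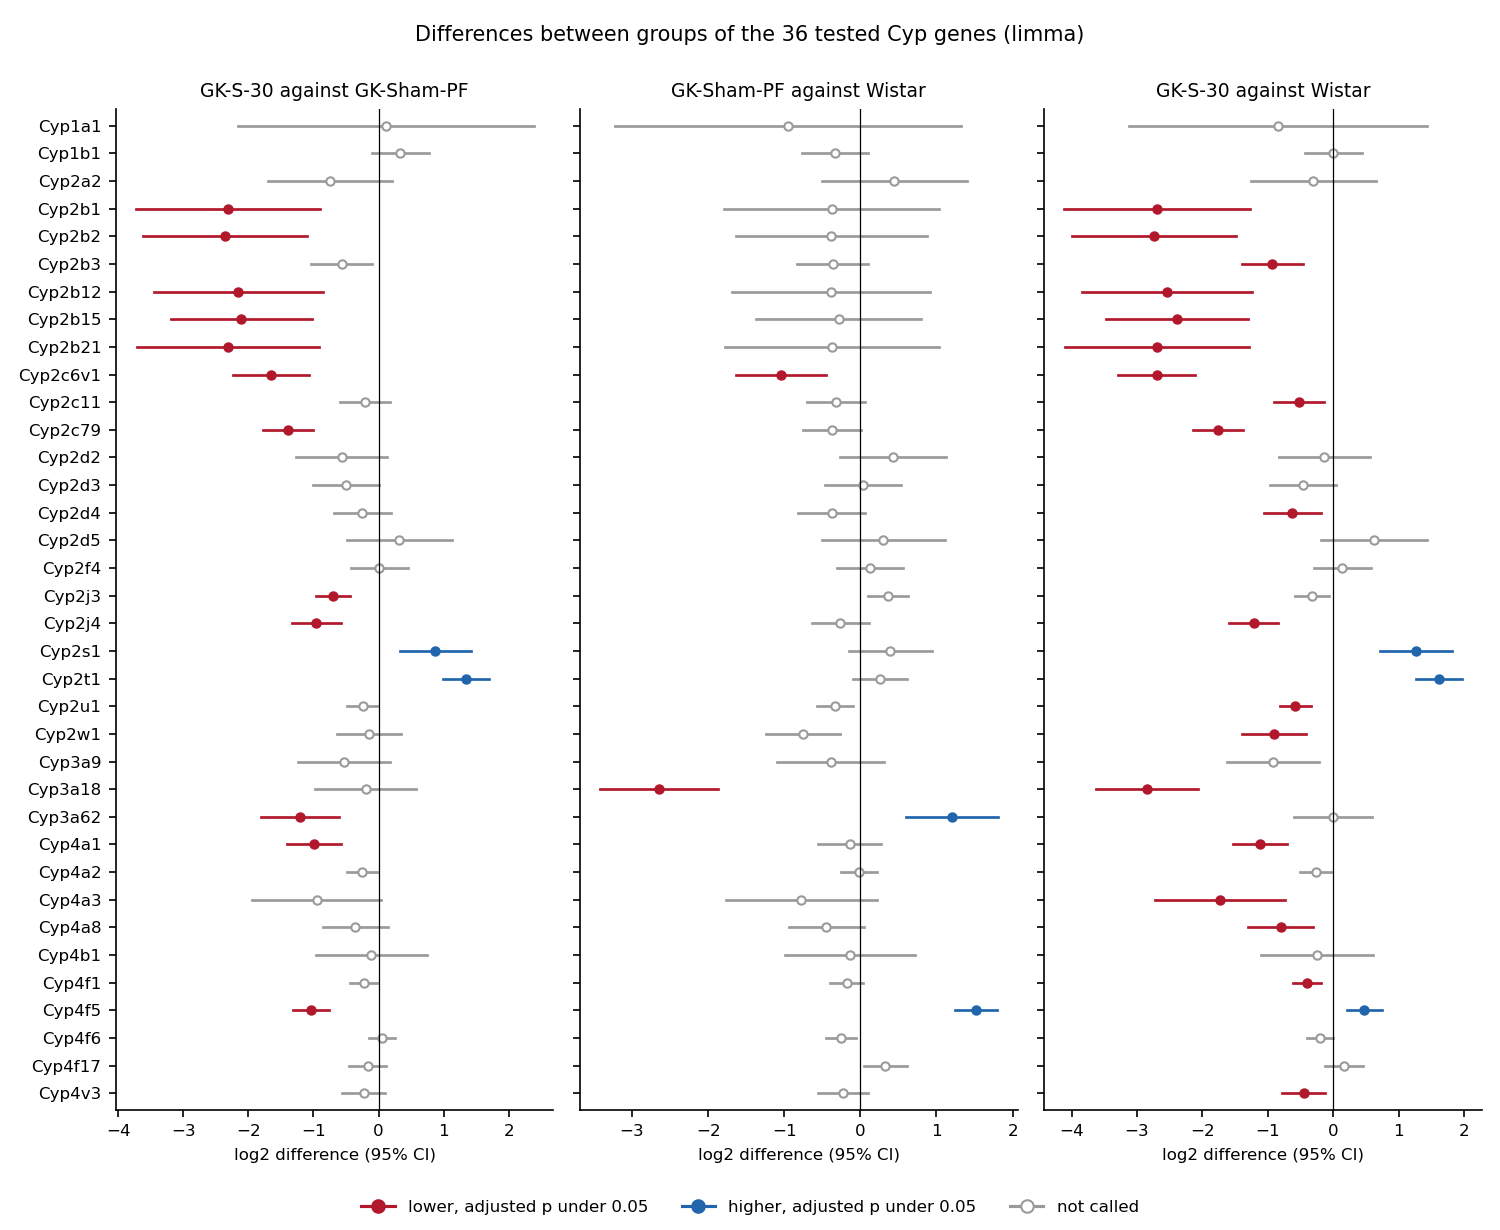
Log2 difference (circle) with its 95% interval (line) for each of the 36 tested P450s in the 3 pairs of groups, called differences filled in red where lower and blue where higher. Against sham, 12 called differences lie below 0 and 2 above, and those of 5 Cyp2b genes are the largest, from -2.36 to -2.11.

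No call was made for 12 tested P450s: Cyp1a1, Cyp1b1, Cyp2a2, Cyp2d2, Cyp2d3, Cyp2d5, Cyp2f4, Cyp3a9, Cyp4a2, Cyp4b1, Cyp4f17 and Cyp4f6. Their intervals leave room for change, most of all in Cyp1a1, an aryl hydrocarbon receptor target, whose difference from sham was 0.11 with a 95% interval of -2.16 to 2.38. The other 17 genes were not tested. Of these, 8 were above background on some arrays (Cyp1a2, Cyp2a3, Cyp2c13, Cyp2e1, Cyp2j10, Cyp3a23/3a1, Cyp4f39 and Cyp4f4) and 9 on none (Cyp2a1, Cyp2c12, Cyp2c22, Cyp2c7, Cyp2g1, Cyp2j13, Cyp2r1, Cyp3a2 and Cyp4x1).

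The enzymes that serve P450s with electrons and heme were looked at next. Of 10 electron donors tested, only the mitochondrial ferredoxin Fdx1 was called against sham (-0.27, adjusted p = 0.0478), and against Wistar 2 were lower in GK-S-30 rats. P450 reductase, Por, on which microsomal P450s depend, differed by -0.04 ± 0.17 (adjusted p = 0.922), and cytochrome b5, Cyb5a, by -0.11 ± 0.13 (adjusted p = 0.669). Of 13 genes of heme synthesis and breakdown 2 rose, Cpox (0.83, adjusted p = 0.00914) and Alas1, the first enzyme of the pathway (0.65, adjusted p = 0.0336), and none fell. Against Wistar 2 were higher in GK-S-30 rats and 1 was lower. Cpox was far lower in both GK groups than in Wistar (-3.93 in sham and -3.11 in GK-S-30 rats).

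Among 17 sensing receptors and partners tested, 1 was lower in GK-S-30 than in sham rats, none was higher, and 7 were lower than in Wistar. The 1 was Nr0b2, a repressor induced by bile acids (-2.38 ± 0.43, adjusted p = 0.00329). CAR (Nr1i3) was not called between GK-S-30 and sham rats (adjusted p = 0.999) and was lower in both GK groups than in Wistar (-0.78 in each). PXR (Nr1i2) differed from sham by -0.42 ± 0.14 (adjusted p = 0.0738) and from Wistar by -0.57 (adjusted p = 0.00676). Ppara differed by -0.33 ± 0.19 (adjusted p = 0.319) and -0.77 (adjusted p = 0.00813). The aryl hydrocarbon receptor was not analysed here.

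Target genes of these receptors outside the P450s were also counted. Of 19 PPAR-alpha targets, 6 fell against sham and none rose, with a median of -0.42 beside -0.03 over all genes. The log2 of their summed signal was 18.59 to 18.77 in GK-S-30, 18.77 to 18.85 in sham and 18.66 to 18.86 in Wistar rats. The GK-S-30 and Wistar ranges overlapped. Against Wistar 9 were lower in GK-S-30 rats and 1 was higher. Among those called, the 3 largest falls were in Acaa1b, of peroxisomal fatty acid oxidation (-1.18), Angptl4, an inhibitor of lipoprotein lipase (-1.12), and Vnn1, a pantetheinase (-0.78). Of 13 PXR and CAR targets none was called against sham by limma, with 1 at an unadjusted p under 0.05, while in GK-S-30 against Wistar 2 were higher and 3 lower, with a median of -0.28. The largest of these changes were in Ces2c, a carboxylesterase (2.12, and 2.48 in sham against Wistar), and the aldehyde dehydrogenases Aldh1a7 (-1.97) and Aldh1a1 (-1.32). Of 5 aryl hydrocarbon receptor targets 1 fell against sham, the glucuronosyltransferase Ugt1a6 (-0.76 ± 0.15, adjusted p = 0.00527), and against Wistar 4 were lower in GK-S-30 rats.

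Of 17 other enzymes of arachidonic acid and epoxides, 3 rose and 1 fell in GK-S-30 against sham, and 6 were higher and 3 lower than in Wistar. Ephx2, the soluble hydrolase that breaks down the epoxides made by Cyp2c and Cyp2j enzymes, fell (-1.05 ± 0.16, adjusted p = 0.000867) and was already much lower in sham than in Wistar rats (-3.46, adjusted p = 9.13e-10). Thromboxane synthase, Tbxas1 (0.81), and cyclooxygenase-1, Ptgs1 (0.54), were among those that rose.

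Other cell types were measured in the same segments. The log2 of the summed signal of the 8 smooth muscle markers was 14.73 to 15.54 in Wistar, 14.61 to 15.69 in sham and 16.41 to 16.79 in GK-S-30 rats, with no overlap. Of those 8, 4 rose against sham, among them Actg2 (2.35 ± 0.24), Cnn1 (2.23 ± 0.29) and Des (1.99 ± 0.20), and none fell. The summed signal of the 12 absorptive enterocyte markers was 20.21 to 20.48, 20.12 to 20.39 and 20.04 to 20.36 in the same order. GK-S-30 replicate 1 had the lowest enterocyte sum of all arrays. Of the 12 enterocyte markers 1 was called against sham, and it fell (Mttp, -0.34). Their median difference was -0.07, beside -0.43 for the P450s. The mean was lower for 10 of the 12, by as much as -1.06, beside 7169 of all 13023 genes. The mean of all 8 smooth muscle markers was higher than in sham, with a median difference of 1.14. The part of these lists in the P450 differences was not tested.

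**Figure D5:**
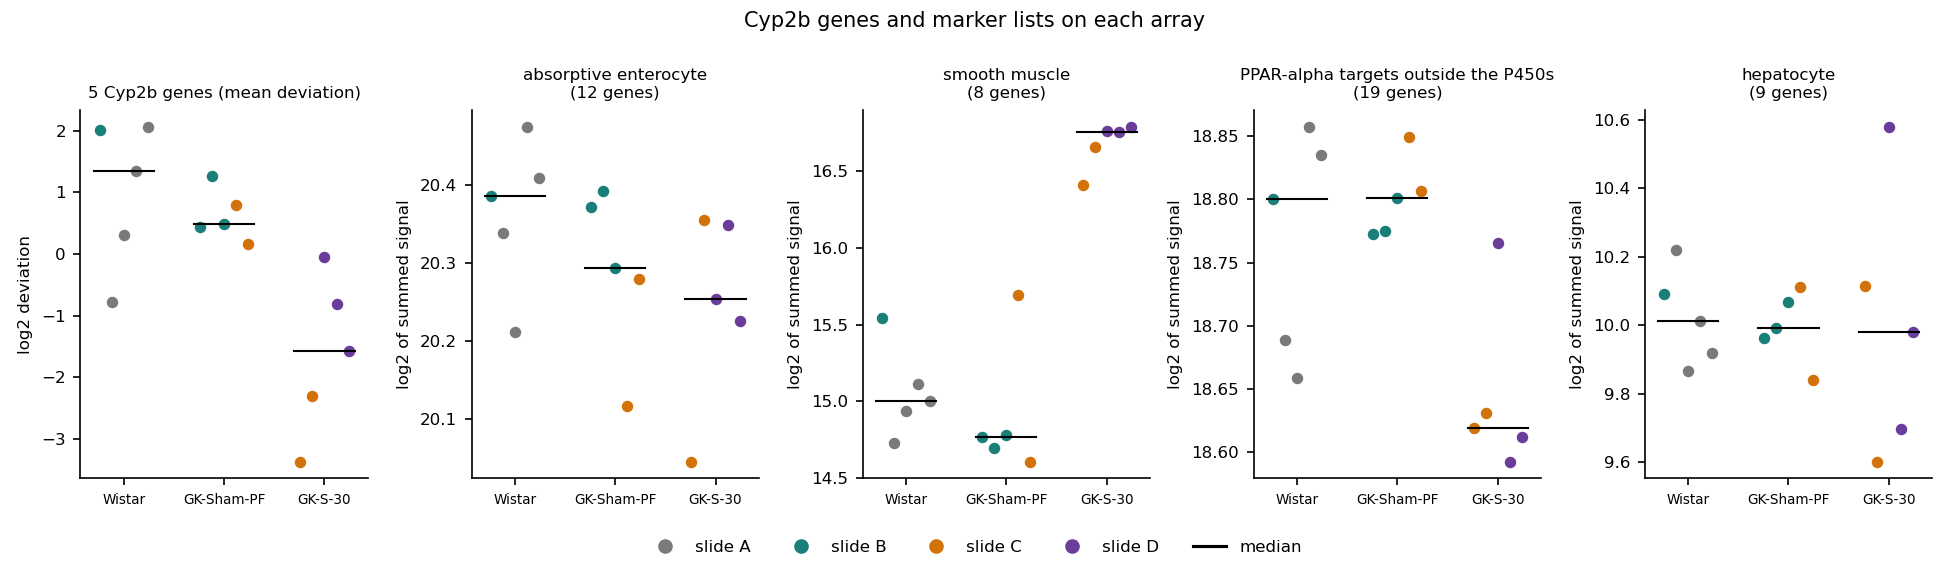
Mean deviation of the 5 Cyp2b genes (log2, first panel) and log2 of the summed signal of the absorptive enterocyte, smooth muscle, PPAR-alpha target and hepatocyte lists (other panels) on each array, coloured by slide, with group medians as lines and a scale for each panel. Smooth muscle markers lie between 16.41 and 16.79 in GK-S-30 rats and at or below 15.69 in all control rats, and the enterocyte and hepatocyte ranges of the groups overlap.

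Markers of position and of neighbouring organs differed too. Of 6 ileal markers tested 2 rose against sham and 1 fell, led by the bile acid transporter Slc10a2 (3.43 ± 0.30), which was lower in sham than in Wistar rats (-2.41). Against sham, 1 of 9 hepatocyte markers rose, 1 of 8 pancreatic acinar markers fell and none of 5 gastric markers was called by limma, with 1 at an unadjusted p under 0.05. The summed ranges of these lists overlapped between sham and GK-S-30 rats. Of 11 pancreatic markers on the array 6 were above background on every array, as were 4 of 11 gastric and 4 of 12 hepatocyte markers. No array was above background for Pnlip and Cpb1 of pancreas or for Cblif and Anxa10 of stomach, the only 2 such markers in either list. Of 6 goblet cell markers 1 rose against sham, of 9 crypt proliferation markers none was called by limma (1 at an unadjusted p under 0.05), and of 8 blood and immune markers 2 fell. Their part in the P450 differences was not tested.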

How the data were processed

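Total RNA of the segments was labelled with Cy3 and hybridised to single-colour whole rat genome arrays. The authors deposited Feature Extraction output (version 10.7.3.1 per the file headers, 10.7 in the submitters' processing notes), from which the background-corrected processed signal intensity was used, and a table of log2 values quantile-normalized in GeneSpring, used as an alternative. Control and outlier spots were left out, spots of a probe averaged, log2 signals quantile-normalized and tested with limma 3.58.1 (R 4.3.3) on all 15 arrays. A probe was kept where all 5 arrays of some group were well above background, and the brightest probe kept stood for its gene. Of 22503 named probes, 17541 were named by accession and 1325 kept the file's name. Groups and replicate numbers come from the labels. With 1 array per rat, p-values measure the spread between rats and arrays together, and the number of arrays limits precision. The analysis was tested on simulated data. Values on every array are given for P450s with a called change of at least 1 on the log2 scale. From each list of other genes, Por, Nr1i2, Nr1i3, Ppara and Cyb5a and at most the 3 largest called changes are named. Alternatives covered scaling, background correction, the deposited log2 table, filters, slide, replicate number, the methods' Tukey comparison, probe choice and left-out arrays. The P450s, the gene lists and the promoter motifs were chosen with earlier results of these data known. Promoter sequences are from RefSeq, which listed 29 of the 36 tested P450s.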

Additional observations from a re-analysis of the deposited data

Results flagged for a closer look

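In 9 of 108 sets of 5 arrays (36 P450s in 3 groups, 8.33%), 1 array stood apart by the gap test of Dixon, which chance alone gives in about 5 of 100. Cyp1a1 was low on 2 arrays, at 5.69 in GK-Sham-PF replicate 3 (next value 9.89) and 5.42 in GK-S-30 replicate 1 (next value 9.87). Cyp1b1 was low at 4.52 in GK-Sham-PF replicate 5 (next 5.48) and at 5.28 in GK-S-30 replicate 1 (next 5.78). In Wistar rats Cyp2a2 was low at 2.83 in replicate 3 (next 3.94) and Cyp2b15 at 8.34 in replicate 2 (next 10.25). The high values were Cyp2c6v1 at 6.85 in GK-Sham-PF replicate 5 (next 6.29), Cyp4a2 at 6.87 in Wistar replicate 3 (next 6.72) and Cyp4f5 at 11.13 in Wistar replicate 1 (next 10.80).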

How the results depend on the processing

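No alternative turned the direction of any of the 40 calls. All 40 held with the deposited log2 values, slide as a random block, outlier spots kept and the mean of a gene's probes. By the methods' Tukey comparison all 40 held at its unadjusted threshold and 24 after Benjamini-Hochberg adjustment. With 75th percentile scaling 39 held, with normexp background correction 37 and with no filter on dim probes 33, where 1 P450 was higher against sham. Without that filter 593 of all 17338 genes were higher against sham. With a filter on all 15 arrays 1 P450 was lower in sham than in Wistar, beside 544 of all 12056 genes. With slide as a fixed block the P450s called higher and lower were 1 and 6 (GK-S-30 against sham), 1 and 4 (GK-S-30 against Wistar) and 1 and 1 (sham against Wistar). Over all 13023 genes these counts were 192 and 93, 139 and 98, and 87 and 92 in that order. Of the other lists 9, 5 and 3 genes were called, beside 28, 68 and 17 without the block. The methods' Tukey comparison called 49 list genes against sham and 5 P450s lower in sham than in Wistar at an unadjusted threshold. At that threshold it called 2120 of all 13023 genes against sham and 994 lower in sham than in Wistar. After Benjamini-Hochberg it called 12, 40 and 10 list genes, 6 and 12 P450s lower in GK-S-30 than in sham and Wistar, 1 higher than in sham, and 1 higher and 1 lower in sham than in Wistar. Leaving out 1 array gave 1 to 2 P450s higher and 8 to 13 lower against sham, 3 to 4 and 16 to 21 in GK-S-30 against Wistar, 2 to 3 and 1 to 3 in sham against Wistar, and 22 to 34, 57 to 71 and 12 to 18 list genes. Over all genes, 491 to 768 were then higher and 356 to 726 lower against sham. Against Wistar the ranges were 1359 to 1745 and 1465 to 1945 for GK-S-30, and 404 to 593 and 447 to 623 for sham. Without GK-S-30 replicates 1 and 2, or without GK-S-30 replicate 1 and GK-Sham-PF replicate 3, both chosen after seeing the data, 1 P450 was higher and 8 were lower against sham. Over all genes 416 were higher and 464 lower in the first case, and 441 and 267 in the second. With replicate number as a block, 2 P450s were higher and 9 lower against sham, 2 and 3 in sham against Wistar and 3 and 17 in GK-S-30 against Wistar, and 21, 13 and 60 list genes were called. Over all 13023 genes the counts were 498 and 390, 402 and 452, and 1357 and 1504 in the same order. Same-numbered arrays of different groups correlated at -0.28 to 0.18 (3 of 15 pairs above 0.1). Differently numbered arrays correlated at -0.38 to 0.57 (18 of 60 pairs above 0.1). These values show no pairing of rats by number, but cannot exclude it. The causes were not tested. Signal over background limits what dim probes such as that of Cyp2w1 can show, and no spot was saturated.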
